A study of Mus musculus with 9 samples.

Results

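Matrix metalloproteinases (Mmps), ADAMTS proteases and the tissue inhibitors of metalloproteinases (Timps) are the enzymes and inhibitors that cut and protect the extracellular matrix around the mammary epithelium, and their mRNA was examined in the gland of lactating mice. The members were all array probes whose gene name was Mmp with a number, Timp with a number or Adamts with a number. This rule took 42 genes of the 27962 named on the array, measured by 73 of 41174 probes: 21 Mmp genes, 17 Adamts genes and 4 Timp genes. Mammary gland number 4 was taken on lactation day 2 (L2) from 4 wild type (WT) mice and from 5 transgenic mice that express human NAG-1 (hNAG-1, also called GDF15, a secreted protein of the TGF-beta family) throughout the body, and each gland was hybridized to 1 single-colour Agilent array. Both genotypes carried the strain background that the labels write as C57BL/7, and the methods collected gene expression samples after the 4th litter. The methods centre on 1 transgenic line and combined lines for some of the work, without saying which the arrays used, and the dams' age when the glands were taken is not given in the sources used here. The transgene was not checked here. The gland was pulverized whole, so fewer cells of a type and less RNA per cell cannot be told apart.

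Mmps are secreted or membrane-bound zinc enzymes made as inactive precursors. Collagenases cut intact collagen fibres, gelatinases cut denatured collagen and basement membrane, stromelysins and matrilysin cut a wide range of matrix proteins and other Mmp precursors, and membrane-type Mmps act at the cell surface. ADAMTS proteases carry thrombospondin repeats and cut proteoglycans such as versican and aggrecan, or trim the ends of procollagens. Timps bind and block the active enzymes. In the mammary gland these proteins are known for ductal branching and for the collapse of the lobules after weaning, when the balance shifts from inhibitors to enzymes.

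Of the 21 Mmp genes, 8 lie in a cluster on chromosome 9 (Mmp13, Mmp12, Mmp3, Mmp1a, Mmp10, Mmp8, Mmp20 and Mmp7). The bases just before the transcription start of 5 of these genes are shown because the promoter windows of most genes in the cluster hold the same short pattern. They are RefSeq promoter sequence of GRCm38.p6, plus strand, from 100 bases before the start to the last base before it. Mmp7 has another annotated start whose promoter lacks the pattern, and the window shown is that of the start whose promoter holds it. The capitals mark TGANTCA, a pattern that takes in the binding site of AP-1 transcription factors, and TATAAA, the TATA box.
Mmp13, chr9:7272414-7272513: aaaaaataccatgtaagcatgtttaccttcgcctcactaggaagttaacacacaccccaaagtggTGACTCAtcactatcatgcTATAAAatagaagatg
Mmp3, chr9:7445722-7445821: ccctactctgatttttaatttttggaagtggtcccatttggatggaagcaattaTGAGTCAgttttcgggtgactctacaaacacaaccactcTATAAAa
Mmp10, chr9:7502242-7502341: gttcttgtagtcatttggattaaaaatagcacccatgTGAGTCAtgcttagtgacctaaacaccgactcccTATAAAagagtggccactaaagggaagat
Mmp8, chr9:7558329-7558428: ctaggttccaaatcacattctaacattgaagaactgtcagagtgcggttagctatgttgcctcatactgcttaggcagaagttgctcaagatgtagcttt
Mmp7, chr9:7691990-7692089: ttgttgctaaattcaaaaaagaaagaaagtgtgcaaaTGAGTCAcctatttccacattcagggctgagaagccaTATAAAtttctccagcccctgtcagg
The TGANTCA match began 35 bases before the start in Mmp13, 46 in Mmp3 and 63 in both Mmp10 and Mmp7, and the Mmp8 window held neither pattern. Promoter sequence of 300 bases was matched for 28 of the 42 genes. A gene was counted where any of its annotated promoters held the pattern. TGANTCA, which reads the same on both strands, was present in 7 of the 28, all in the chromosome 9 cluster. These were 7 of its 8 genes, Mmp8 being the exception, and 0 of the 20 genes elsewhere held it. The same pattern was in the promoters of 8.97% of all 27025 RefSeq genes at this length, and in 7.81% of all 32851 promoters. TATAAA on the gene's strand was in 9 of the 28 genes, 7 of them in the cluster, against 9.77% of all genes and 8.32% of all promoters. These are matches of letters.

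The lactating glands gave signal for most of this family. Values are scaled intensities, that is, the scanner's processed signal after each array was brought to a common 75th percentile. A probe was counted as measured where the scanner software called it well above background. For 48 of the 73 member probes, which belong to 33 genes, this held throughout 1 genotype or both, as it did for 26762 of all 41174 probes. It held on all 9 arrays for 34 probes of 25 genes, on 1 to 8 arrays for 28 probes, and on no array for 11 probes. Mmp20, the enamel protease of teeth, Adamts13, the protease of von Willebrand factor, and Adamts19 had no probe well above background on any array. No member spot was saturated.

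The arrays differed in how many of their spots passed the background call, and the dim members differed with them. The share of spots well above background was 60.3% in hNAG-1 2, 64.6% in hNAG-1 3 and 59.8% in hNAG-1 4, and 69.0% to 76.1% in the other 6 glands. Those 3 arrays and hNAG-1 1 were on slide 2, WT 1 was on slide 1, and WT 2 to 4 and hNAG-1 5 were on slide 3, so that genotype and slide could be compared within slide 3 only. All 7 markers of lactating epithelium, including the caseins, were well above background on all 9 arrays. Summed neutrophil marker intensity was 81225 in hNAG-1 4 and 1324 to 5572 elsewhere, and summed lymphocyte marker intensity was 67985 in WT 2 and 1333 to 10680.0 elsewhere.

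The genotypes were compared by limma over all probes, and a log2 fold change is the mean log2 scaled intensity of hNAG-1 minus that of WT. No member had an adjusted p under 0.05 (the lowest was 0.661 in limma with Benjamini-Hochberg adjustment), where 0.00243% of all probes, 1 probe, did. At an unadjusted p under 0.05 there were 3 member probes of 73 (4.11%), against 5.60% of all probes. Adamts13 was the 1 member called higher (1.37% of member probes, with 1.15% of all probes called higher), and Mmp7 and Mmp10 were the 2 called lower (2.74%, with 4.45% of all probes called lower). Values of the genotypes did not overlap for 1 member probe, Mmp7 (1.37%, against 1.35% of all probes). The methods' criteria were an unadjusted p under 0.05, a fold change of 1.5 or more and an intensity that reached 65 in some gland. With limma's p they were also met by Mmp7 alone (1.37%, against 2.25% of all probes). With the methods' own test they were met by 1 member (1.37%) and by 1.22% of all probes. Mmp7 reached 65 in WT 1 alone (92.4), so it passed through the genotype in which it was higher. Each share of members was close to or below that of the whole array.

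Taken over all 73 probes, 35 were higher and 38 lower in hNAG-1 glands, or 52.1% lower, and the same percentage, 52.1%, was lower over the whole array. This division moved with the scaling, for members and array alike: 25 of 73 members and 31.2% of all probes were lower with median scaling, and 49 of 73 and 70.6% with no scaling. The median log2 fold change was -0.08 over member probes and -0.02 over all probes. The members were also divided by how many arrays measured them, a division that a low value in some glands itself helps to set. The 34 member probes well above background on all 9 arrays divided into 18 higher and 16 lower, with a median of 0.03 (0.01 for all such probes), extremes of -0.51 and 0.43 and a lowest unadjusted p of 0.108. None of them reached a fold change of 1.5, and for 18 of the 34 the 95% interval of the fold change lay within 2-fold in both directions. Of the 28 member probes above background on 1 to 8 arrays, 21 were lower, with a median of -0.34. Over the whole array 80.3% of the 10447 probes of that kind were lower, with a median of -0.46. These dim member probes stood at a median of -0.59, -0.21 and -0.72 (log2, relative to the mean of the 9 arrays) in hNAG-1 2, 3 and 4 and at 0.67 in hNAG-1 5. All probes of that kind stood at -0.66, -0.60 and -0.49 and at 0.66 in the same glands. The part of this difference between arrays in the dim members' values was not tested.

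**Figure D1:**
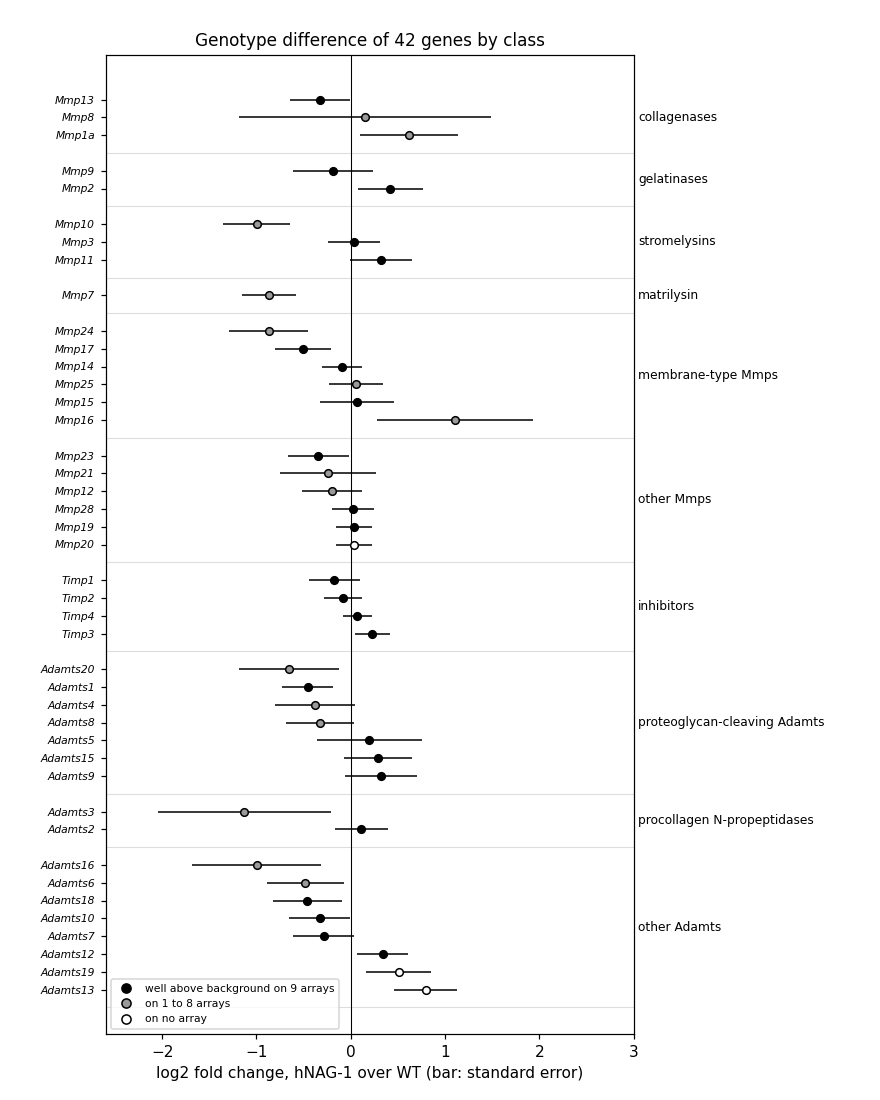
Log2 fold change of hNAG-1 over WT (horizontal axis, with standard error) for the 42 genes by class, 1 probe per gene, filled by how many arrays had the probe well above background. Black points lie between -0.51 and 0.42, and the points farther to the left, such as Mmp7, Mmp10 and Adamts3, are grey.

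Among the collagenases, Mmp13, the main collagenase of rodents, was the one measured in every gland. Its scaled intensity was 355, 175, 495 and 366 in WT 1 to 4 and 364, 301, 189, 286 and 199 in hNAG-1 1 to 5. The WT range, set by WT 2 and WT 3, spanned all 5 hNAG-1 values. For Mmp13 the log2 fold change was -0.33 ± 0.32 (SE; unadjusted p = 0.333, exact permutation p = 0.365). Without WT 2, the lowest gland, it was -0.63 (unadjusted p = 0.0407, adjusted p = 0.896 in limma), and without WT 3 it was -0.13 (unadjusted p = 0.707). On its brighter probe Mmp1a, an interstitial collagenase, was above background in hNAG-1 2 alone, at 43.0 against 5.53 to 14.3 in the other 8 glands. Its second probe read 6.10 in hNAG-1 2 and was above background in no gland. The probes gave log2 fold changes of opposite sign (0.62 and -0.20), so the high reading in hNAG-1 2 rests on 1 probe.

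Mmp8, the collagenase stored in neutrophil granules, stood far higher in 1 gland than in the other 8, and was well above background in 2 of 4 WT and 1 of 5 hNAG-1 glands. Its scaled intensity was 16.3, 25.9, 37.9 and 14.6 in WT 1 to 4 and 14.95, 6.15, 4.52, 784 and 26.8 in hNAG-1 1 to 5. The value in hNAG-1 4 was 20.7 times the next highest, that of WT 3, and the remaining 7 glands read 26.8 or less. Its values in the other hNAG-1 glands overlapped those of WT, and the log2 fold change was 0.15 ± 1.34 (SE; unadjusted p = 0.911 in limma). Without hNAG-1 4 no hNAG-1 gland was well above background for Mmp8, so no fold is drawn from the remaining glands. The array sequence behind this reading is shown because a single probe carries it: it lies on chr9:7566361-7566420 (mm7, plus strand, as given in the array files).
Mmp8 probe: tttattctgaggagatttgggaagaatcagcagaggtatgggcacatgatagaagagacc
In the same gland, 5 of 7 neutrophil markers measured were at their highest, 4 of them well above background. S100a9, a granulocyte calcium-binding protein, read 71256 there and 501 to 3697 elsewhere. S100a8, its partner, read 9022 against 454 to 1570, Camp, a granule antimicrobial peptide, read 402 against 4.10 to 25.5, and Ngp, another granule protein, read 372 against 5.29 to 95.1. The other two were not at their highest there: Cxcr2, a chemokine receptor of neutrophils, read 22.5 there, 117 to 241 in WT glands and 6.38 to 320.1 in the other hNAG-1 glands, and Mpo, myeloperoxidase, read 143 against 241 in WT 2. Elane, neutrophil elastase, was not well above background in any gland. Summed macrophage markers were also highest in hNAG-1 4 (218020 against 66902 to 158220), a sum of which Lyz2, lysozyme, made up 186440, and 3 of the 6 markers (Adgre1, Mrc1 and Lyz2) were highest in that gland. Mmp9, a gelatinase of neutrophils and macrophages, read 265 in hNAG-1 4 on its brighter probe, below 280.0 in WT 4, and 150.1 on its second probe, the highest of the 9 glands there. Why this gland differed was not tested.

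**Figure D2:**
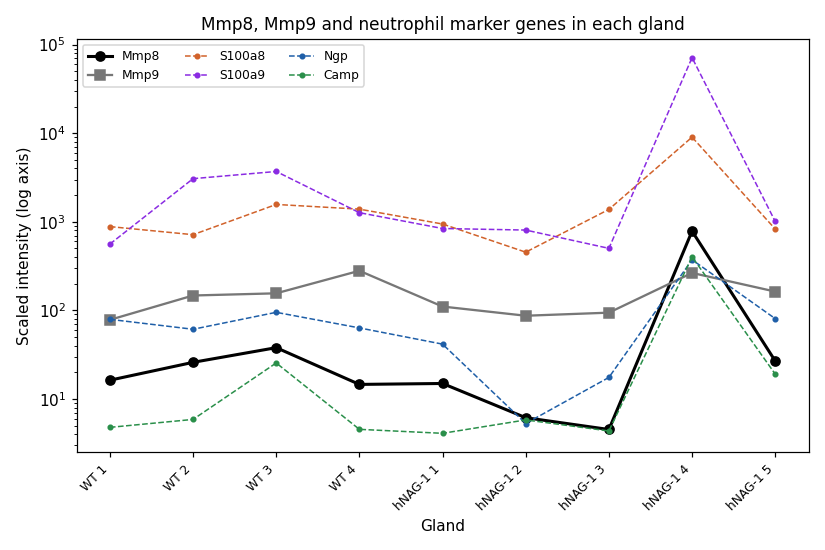
Scaled intensity (log axis) of Mmp8, Mmp9 and 4 neutrophil marker genes in each of the 9 glands, 1 line per gene. Mmp8, S100a8, S100a9, Ngp and Camp all peak in hNAG-1 4, where Mmp8 reads 784, while Mmp9, on its brighter probe, is also high in WT 4.

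The gelatinases were measured in all 9 glands. Mmp2, which is made mostly by stromal cells, gave scaled intensities of 690.4, 1236, 1919 and 2473 in WT 1 to 4 and 1439, 2173, 2186, 1820.1 and 1966 in hNAG-1 1 to 5. WT 1 was the lowest gland and WT 4 the highest, and all hNAG-1 values lay between them. This gave Mmp2 a log2 fold change of 0.42 ± 0.34 (SE; unadjusted p = 0.255, exact permutation p = 0.333), and within slide 3 it was 0.12. Without WT 1 it was 0.07 and without WT 4 it was 0.69 (unadjusted p = 0.786 and 0.0650 in limma). For Mmp9, both probes gave lower hNAG-1 means, with log2 fold changes of -0.19 and -0.20 and standard errors of 0.42 and 0.48. The Mmp9 probes had a correlation of 0.95 with each other across the 9 glands. With 1 gland left out, the value of the brighter probe lay between -0.50 and 0.11, so its sign depended on single glands. On the brighter Mmp9 probe the WT range, 78.2 to 280.0, held all 5 hNAG-1 values, and on the second probe hNAG-1 4 (150.1) lay above the WT range of 34.3 to 121.8.

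Of the stromelysins, Mmp3, which cuts many matrix proteins and activates collagenase precursors, was measured in every gland. Its scaled intensity was 4845, 6202, 12877 and 9008 in WT 1 to 4 and 7102, 6616, 7825, 9264 and 8751 in hNAG-1 1 to 5, so the hNAG-1 glands lay inside the WT range. Mmp3 had a log2 fold change of 0.03 with a 95% interval of -0.59 to 0.65. Mmp11, stromelysin 3, which furin activates inside the cell, had a log2 fold change of 0.32 ± 0.33 (SE, unadjusted p = 0.353) with overlapping values, and without WT 4 it had one of 0.64 (unadjusted p = 0.0330, adjusted p = 0.701 in limma). Without WT 1 or hNAG-1 3 the value for Mmp11 was 0.12 and 0.17 (unadjusted p = 0.734 and 0.609 in limma).

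Mmp10, stromelysin 2, had a scaled intensity of 38.2, 38.0, 53.2 and 48.4 in WT 1 to 4 and 23.9, 16.6, 14.1, 17.8 and 52.2 in hNAG-1 1 to 5. The 4 hNAG-1 glands of slide 2 were below all WT glands, and hNAG-1 5, on the slide it shared with WT 2 to 4, read above 3 of the 4 WT glands, so the genotypes overlapped. Mean scaled intensity was 44.5 ± 7.59 (SD, n = 4) for the WT glands and 24.9 ± 15.7 (SD, n = 5) for the hNAG-1 glands. The log2 fold change was -0.9995 ± 0.36 (SE; unadjusted p = 0.0210 and adjusted p = 0.661 in limma, exact permutation p = 0.0556). Mmp10 was well above background in 4 of 4 WT and 2 of 5 hNAG-1 glands. Within slide 3, and equally with slide as a block, its log2 fold change was 0.18, where the median of all probes was 0.19, and with another background correction (normexp) it was -0.19 (unadjusted p = 0.279). Without hNAG-1 5 it was -1.31 with an adjusted p of 0.045 in limma, and without WT 3 the unadjusted p was 0.0559.

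Mmp7, matrilysin, a small Mmp that is secreted by glandular epithelium, was the only member whose genotypes separated. Its scaled intensity was 92.4, 63.7, 53.2 and 56.9 in WT 1 to 4 and 52.2, 40.0, 20.2, 33.8 and 40.3 in hNAG-1 1 to 5. The gap was narrow: the lowest WT gland, WT 3, read 53.2 and the highest hNAG-1 gland, hNAG-1 1, read 52.2. Mean scaled intensity was 66.5 ± 17.8 (SD, n = 4) for the WT glands and 37.3 ± 11.6 (SD, n = 5) for the hNAG-1 glands, a log2 fold change of -0.87 ± 0.29 (SE, 95% interval -1.51 to -0.22; unadjusted p = 0.0136 and adjusted p = 0.661 in limma). The exact permutation p was 0.0159, where the smallest this design allows is 0.00794. Mmp7 was above background in 4 of 4 WT and 3 of 5 hNAG-1 glands. Leaving out any 1 gland kept the unadjusted p at 0.0438 or below. Within slide 3 the log2 fold change was -0.52 (unadjusted p = 0.124), with slide as a block it was the same (unadjusted p = 0.311), with quantile normalization it was -0.58 (unadjusted p = 0.0769), with the normexp correction it was -0.16 (unadjusted p = 0.400), and leaving out WT 2 together with hNAG-1 4 gave -0.86 (unadjusted p = 0.0507). The probe lies on chr9:7695434-7695493 (mm7, plus strand), and it is shown because the only separated member rests on it.
Mmp7 probe: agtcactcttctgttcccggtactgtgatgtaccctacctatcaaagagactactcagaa

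**Figure D3:**
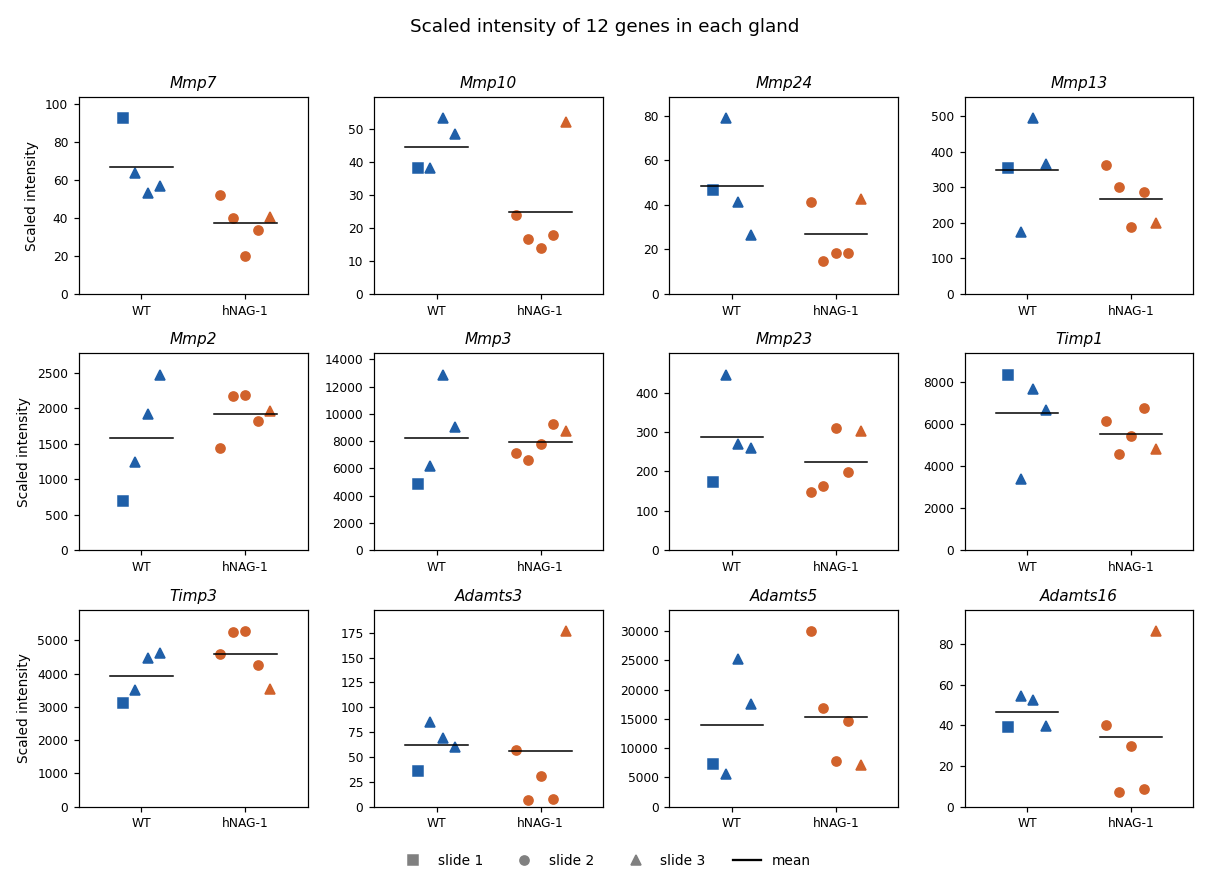
Scaled intensity (vertical axis, from 0) of 12 genes in each gland, WT in blue and hNAG-1 in orange, with the marker giving the slide and the bar the mean. Mmp7 is the only panel in which the genotypes do not overlap, and in the panels of Mmp10, Adamts3 and Adamts16 the single hNAG-1 gland of slide 3 reads above the other hNAG-1 glands.

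Of the 6 membrane-type Mmps, Mmp14, which activates the precursor of Mmp2 at the cell surface, was measured in all glands and varied little, with a standard deviation of 0.32 within genotypes on the log2 scale. Its scaled intensity ranged from 2031 to 3709.6 in WT and from 2046 to 3092 in hNAG-1 glands, with a log2 fold change of -0.09 and a 95% interval of -0.58 to 0.40. Its second probe gave -0.14. Mmp24, a transmembrane Mmp, was chosen for full description by size of change, and it counted as measured through WT, being well above background in 4 of 4 WT and 2 of 5 hNAG-1 glands. Its scaled intensities were 46.7, 78.9, 41.2 and 26.3 in WT 1 to 4 and 41.3, 15.01, 18.3, 18.2 and 42.4 in hNAG-1 1 to 5. The genotypes overlapped, since hNAG-1 1 and hNAG-1 5 read above WT 4 and WT 3. Mmp24 thus had a log2 fold change of -0.87 ± 0.42 (SE; unadjusted p = 0.0654, exact permutation p = 0.0952), and within slide 3 it was -0.05. Without WT 4, hNAG-1 1 or hNAG-1 5 in turn it was -1.12, -1.06 and -1.07, with unadjusted p of 0.0286, 0.0339 and 0.0278 in limma. Without any other gland it lay between -0.91 and -0.60, with unadjusted p of 0.0933 to 0.189 (the latter without WT 2). With the normexp correction it was -0.25 (unadjusted p = 0.178). A second Mmp24 probe, well above background in 1 of 4 WT and 0 of 5 hNAG-1 glands, gave -0.06 (unadjusted p = 0.879 in limma). The mean over the gene's probes gave -0.47 (unadjusted p = 0.256 in limma).

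The glycolipid-anchored Mmp17 was read differently by its probes. The brighter one gave a log2 fold change of -0.51 ± 0.30 (SE, unadjusted p = 0.119), and the dimmer one gave 0.33 ± 0.25, with a correlation of 0.07 between the probes across glands. On the dimmer probe hNAG-1 5 read 111.7 and the other 8 glands read 42.7 to 58.0. Mmp15, Mmp16 and Mmp25 gave log2 fold changes of 0.07, 1.10 and 0.05, with unadjusted p of 0.867, 0.214 and 0.858 in limma. Mmp16 was above background in 1 WT and 2 hNAG-1 glands only, so its value rests mostly on readings near background. It lay between 0.62 and 1.58 with 1 gland left out. A second Mmp16 probe, above background in no gland, gave 0.04.

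Among the other Mmps, Mmp23, a membrane-anchored protease, had the largest change of those measured. Its scaled intensity was 173, 446, 271 and 261 in WT 1 to 4 and 148, 162, 309, 199 and 302 in hNAG-1 1 to 5. WT 2 was the highest gland, and the remaining values of the genotypes overlapped, with a log2 fold change of -0.34 ± 0.33 (SE; unadjusted p = 0.317, exact permutation p = 0.349). Without WT 2 the value for Mmp23 was -0.10, without hNAG-1 1 it was -0.21, without WT 1 it was -0.56, and within slide 3 it was -0.06. Mmp19 and Mmp28 were measured in all glands and differed little between genotypes, with 95% intervals of -0.39 to 0.46 and -0.47 to 0.52, both within 1.5-fold. Mmp12, the elastase of macrophages, had a log2 fold change of -0.20 ± 0.32 (SE, unadjusted p = 0.543). Mmp21 was above background in 2 WT and 2 hNAG-1 glands, with its highest value, 64.997, in hNAG-1 5.

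The 4 inhibitors were measured in every gland. Their standard deviations within genotypes were 0.19 to 0.42 on the log2 scale, each below the median of 0.52 over the measured member probes. Timp3, which binds to the matrix and also blocks ADAMTS proteases, gave scaled intensities of 3123, 3500.5, 4465 and 4632 in WT 1 to 4 and 4601, 5258, 5290.1, 4256 and 3545 in hNAG-1 1 to 5. Its ranges overlapped, and the log2 fold change was 0.23 ± 0.19 (SE; unadjusted p = 0.252, exact permutation p = 0.230). The sign was turned within slide 3 (-0.23). Timp2, which both blocks Mmp2 and helps Mmp14 to activate it, had a 95% interval of -0.54 to 0.38, and Timp4 one of -0.28 to 0.42, so that for both a change of 1.5-fold lay outside the interval.

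Timp1, the soluble inhibitor that many cells release on stimulation, was read by 3 probes that correlated at 0.89 to 0.95 across the glands. The brightest gave 8332, 3402, 7665 and 6652 in WT 1 to 4 and 6136, 4546, 5422, 6724 and 4782 in hNAG-1 1 to 5. WT 2 was the lowest of all 9 glands, and WT 1 and WT 3 were the highest. The log2 fold changes of the 3 probes were -0.17, -0.12 and -0.13, with a lowest unadjusted p of 0.535 in limma. Without WT 2, the gland with the high lymphocyte markers, the brightest probe gave -0.46 (unadjusted p = 0.0322, adjusted p = 0.896 in limma), while without WT 1 or WT 3 it gave -0.03 and -0.07 (unadjusted p = 0.919 and 0.822). With hNAG-1 4 left out as well, a choice made after seeing the data, it gave -0.54 (unadjusted p = 0.0160, adjusted p = 0.991 in limma). The 3 Timp1 probes, which read 1 gene, were all lower there at an unadjusted p under 0.05, where 3.02% of all probes were called. Whether the lymphocyte markers of WT 2 bear on these values was not tested.

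Among the ADAMTS proteases that cut proteoglycans, Adamts5 had the widest spread within genotypes of any member gene measured in all glands (standard deviation 0.94 on the log2 scale). Adamts5, the main aggrecan- and versican-cutting enzyme of the mouse, gave scaled intensities of 7349.7, 5502, 25296 and 17589 in WT 1 to 4 and 30050.0, 16843, 7748, 14683 and 7172 in hNAG-1 1 to 5. High and low glands occurred in both genotypes: WT 3 and hNAG-1 1 were high, and WT 1, WT 2, hNAG-1 3 and hNAG-1 5 were low. The highest gland read 5.46 times the lowest, and a second probe followed it with a correlation of 0.98. Adamts5 had a log2 fold change of 0.20 ± 0.56 (SE, unadjusted p = 0.731), and -0.91 within slide 3. With 1 gland left out it lay between -0.16 (without WT 2) and 0.57 (without WT 3). The sign was also turned without WT 1 (-0.02) or hNAG-1 1 (-0.10).

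Adamts1, a versican protease that steroid hormones induce in the ovary, read 1152 in WT 2 and 360 to 648 in the other 8 glands, 1.78 times the next highest. Its second probe was also highest in WT 2 (51.2, against 17.5 to 30.9). All 8 lymphocyte markers were highest in the same gland. Over all glands Adamts1 had a log2 fold change of -0.46 ± 0.27 (SE, unadjusted p = 0.128). Without WT 2 it was -0.20 (unadjusted p = 0.379 in limma), and without WT 2 and hNAG-1 4 together it was -0.25. With slide as a block, and within slide 3, it was -1.03 (unadjusted p in limma of 0.0485 with the block and 0.104 within slide 3).

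Adamts9 and Adamts15, both measured in all glands, were lowest in WT 2, at 340.4 and 559, against 580 to 1283 and 1127 to 2098 in the other 8 glands. Their log2 fold changes were 0.32 and 0.29, with unadjusted p of 0.426 and 0.448 in limma, and without WT 2 they took the other sign, at -0.06 and -0.10. The 3 probes of Adamts9 gave log2 fold changes from -0.24 to 0.32. Adamts20, a versican protease known from the belted coat-colour mutant, was taken by the naming rule for its size of change, and was well above background in 4 of 4 WT but 2 of 5 hNAG-1 glands. Its scaled intensities were 33.3, 42.4, 36.5 and 41.2 in WT 1 to 4 and 40.0, 13.3, 25.0, 9.28 and 69.1 in hNAG-1 1 to 5. The 4 WT glands were close together and the hNAG-1 glands lay below, among and above them. Adamts20 had a log2 fold change of -0.65 ± 0.53 (SE; unadjusted p = 0.250, exact permutation p = 0.318), which turned to 0.79 within slide 3. Adamts4 and Adamts8 had log2 fold changes of -0.38 and -0.33, with unadjusted p of 0.392 and 0.391 in limma.

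The procollagen N-propeptidases trim fibrillar procollagens before the fibres assemble. Adamts2 was measured in every gland, at 1632 to 3331 in WT and 1885 to 3951 in hNAG-1 glands. Its log2 fold change was 0.11 ± 0.28 (SE, unadjusted p = 0.704). Its other probes gave 0.33, 0.01 and 0.60 (unadjusted p = 0.385, 0.981 and 0.120 in limma). The last, above background in 3 of 4 WT and 4 of 5 hNAG-1 glands, had an unadjusted p in limma of 0.0176 with quantile normalization and 0.0301 with median scaling. Adamts3, well above background in 4 of 4 WT and 3 of 5 hNAG-1 glands on its brightest probe, gave 35.4, 84.9, 69.4 and 60.0 in WT 1 to 4 and 56.8, 6.27, 30.6, 7.73 and 177 in hNAG-1 1 to 5. The hNAG-1 glands ranged on both sides of all WT glands, with hNAG-1 2 and hNAG-1 4 near the bottom and hNAG-1 5 at the top. This Adamts3 probe gave a log2 fold change of -1.13 ± 0.92 (SE; unadjusted p = 0.248, exact permutation p = 0.302), and it turned to 1.32 within slide 3. A second Adamts3 probe, well above background in all 9 glands, gave 0.09 ± 0.35.

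Among the other ADAMTS genes, Adamts16 was described in full for its size of change, and it too counted as measured through WT (4 of 4 WT and 3 of 5 hNAG-1 glands well above background). Its scaled intensities were 39.1, 54.6, 52.6 and 39.5 in WT 1 to 4 and 39.9, 7.14, 29.9, 8.69 and 86.4 in hNAG-1 1 to 5. As for Adamts3, hNAG-1 2 and hNAG-1 4 were lowest and hNAG-1 5 was highest. Adamts16 gave a log2 fold change of -0.998 ± 0.69 (SE; unadjusted p = 0.178, exact permutation p = 0.286), and within slide 3 it was 0.84. Without hNAG-1 5 the log2 fold changes of Adamts20, Adamts3 and Adamts16 were -1.03, -1.80 and -1.48, with unadjusted p of 0.0373, 0.0296 and 0.0254 and a lowest adjusted p of 0.249 in limma, in a fit where 14.4% of all probes had an unadjusted p under 0.05. Without hNAG-1 4 the 3 genes gave -0.30, -0.67 and -0.65, and without hNAG-1 2 they gave -0.43, -0.60 and -0.58, with unadjusted p of 0.355 to 0.522 in limma over these 6 values. With the normexp correction the log2 fold changes of Adamts20, Adamts3 and Adamts16 were 0.07, -0.21 and -0.08, the first with its sign turned. Adamts13 gave 5.46, 3.55, 5.27 and 5.04 in WT 1 to 4 and 8.47, 6.58, 5.03, 7.97 and 17.2 in hNAG-1 1 to 5. None of these values was well above background, so no fold is drawn from the unadjusted p of 0.0388 (limma log2 difference 0.79, exact permutation p = 0.0556).

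Adamts12, which cuts cartilage oligomeric matrix protein (Comp), ranged from 281 to 555 in WT and from 357 to 655 in hNAG-1 glands. Adamts12 had a log2 fold change of 0.34 ± 0.27 (SE, unadjusted p = 0.239), whereas its other two probes, each above background in 4 of 4 WT and 3 of 5 hNAG-1 glands, gave -0.49 and -0.26. Adamts7, which cuts the same protein, Adamts10, which binds fibrillin, and Adamts18 had log2 fold changes of -0.29, -0.33 and -0.46, with unadjusted p of 0.394, 0.332 and 0.238 in limma. Adamts6 was above background in WT 2 alone.

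**Figure D4:**
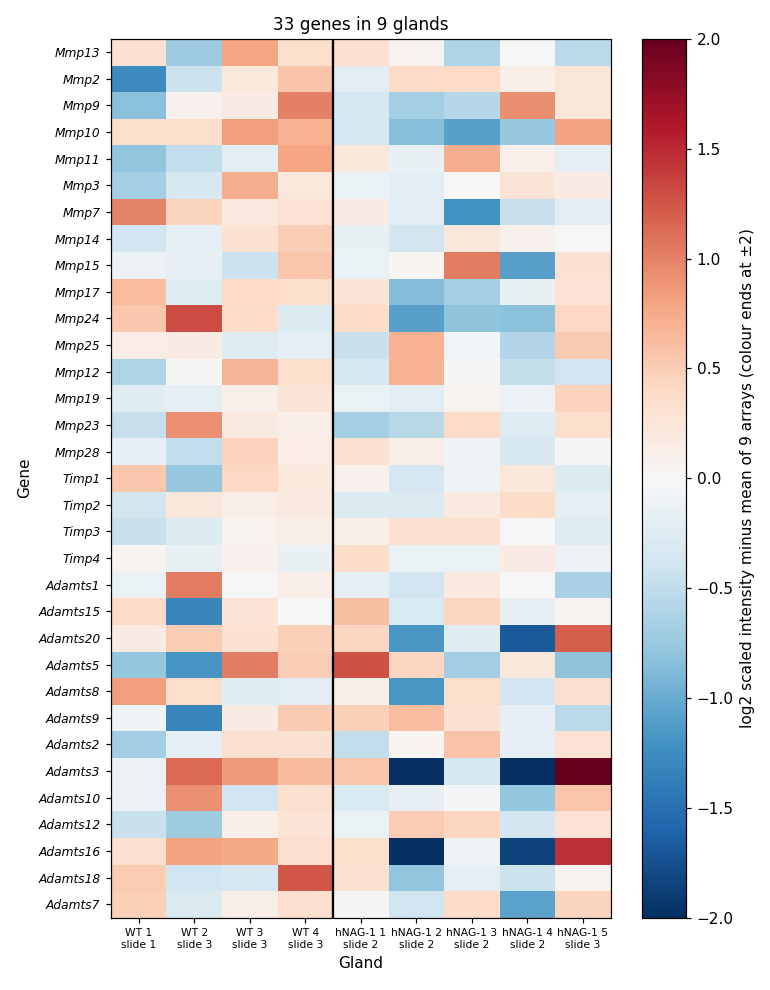
Log2 scaled intensity minus the mean of the 9 arrays, for the 33 genes that were measured throughout WT, hNAG-1 or both (rows), in each gland (columns, WT left of the line). Adamts3, Adamts16 and Adamts20 are low in hNAG-1 2 and hNAG-1 4 and high in hNAG-1 5, whereas the Timp rows stay pale across both genotypes.

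The slide was followed through the family because it is shared unevenly by the genotypes. With slide as a block, 13 of the 34 member probes measured on all arrays changed the sign of their log2 fold change (38.2%), as did 39.9% of the 23086 probes of the whole array measured so. Taken relative to the median of all probes in each fit, the sign changed for 13 of the 34 (38.2%) and for 45.8% of those probes. Over all 73 member probes the median log2 fold change within slide 3 was 0.18, and over all probes of the array it was 0.19, so changes within that slide, such as the 0.18 of Mmp10, are read relative to this shift. Since the block leaves hNAG-1 5 as the only informative transgenic gland, both estimates rest on 1 hNAG-1 gland against 3 WT glands. Whether the slide or the gland itself sets these values cannot be told apart.

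**Figure D5:**
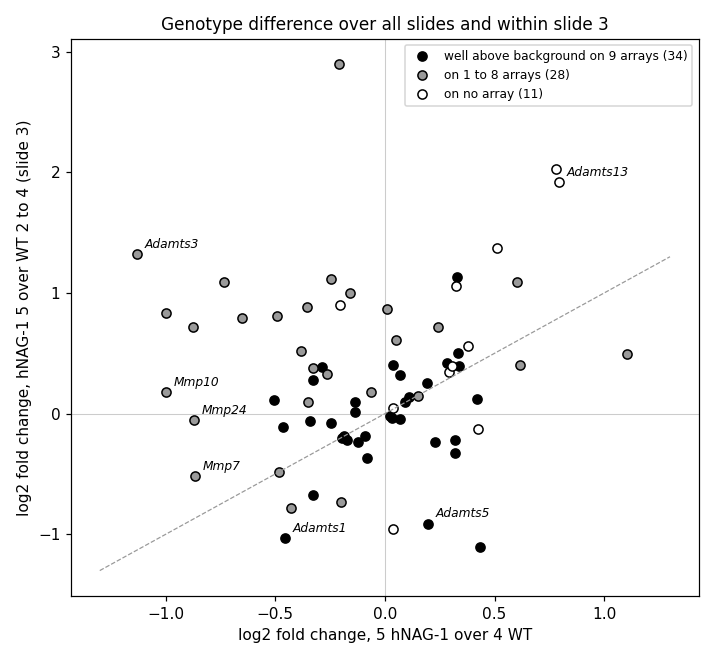
Log2 fold change over all 9 glands (horizontal axis) against that of hNAG-1 5 over WT 2 to 4 on slide 3 (vertical axis) for the 73 member probes, which share these 4 arrays, with the dashed line marking equal values. Mmp7 is below 0 on both axes, while Adamts3 lies left of 0 and far above 0 and Mmp10 lies left of 0 at 0.18, near the all-probe median of 0.19.

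Genes that act with the family were counted from lists, and these counts stand beside 52.1% of all probes lower, 1.15% called higher and 4.45% called lower at an unadjusted p under 0.05. Of 16 activators and regulators, such as furin and the plasminogen system, 7 were higher and 9 lower in hNAG-1 glands, with a median log2 fold change of -0.03. At an unadjusted p under 0.05 none was higher and 1 was lower. This was Spock1 (unadjusted p = 0.0322, adjusted p = 0.661 in limma), which was not well above background in any gland, so no fold is drawn from it. Plg, which encodes plasminogen, an activator of Mmp precursors, read 6.52 to 50.1 in the hNAG-1 glands of slide 2, 169 in hNAG-1 5 and 60.1 to 91.1 in WT glands. Bsg, a surface protein known to induce Mmps in neighbouring cells, had a log2 fold change of 0.33 ± 0.15 (SE, unadjusted p = 0.0586), and Reck, a membrane-anchored Mmp inhibitor, one of 0.16 ± 0.13 (SE, unadjusted p = 0.247).

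Of 17 ADAMTS-like proteins and other metalloproteinases, 6 were higher and 11 lower, with a median of -0.10. At an unadjusted p under 0.05 none was higher and 1 was lower. This was Adamtsl1, with a log2 fold change of -0.55 ± 0.23 (SE, unadjusted p = 0.0362, adjusted p = 0.661 in limma). Adamtsl1 was above background in 4 of 4 WT and 3 of 5 hNAG-1 glands. With slide as a block its log2 fold change was -0.31, and with the normexp correction it was -0.06.

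Of 18 substrates, 13 were higher and 5 lower in hNAG-1 glands, with a median of 0.08, and 3 had an unadjusted p under 0.05. Col4a1 and Col4a2, the chains of basement membrane collagen IV that gelatinases cut, were both called higher. Col4a1 read 4144, 2287, 3719 and 4112 in WT 1 to 4 and 4757, 5961, 7007, 3755 and 4751 in hNAG-1 1 to 5. All hNAG-1 glands except hNAG-1 4 were above every WT gland. For Col4a1 the log2 fold change was 0.56 ± 0.24 (SE, unadjusted p = 0.0458) and that of Col4a2 0.68 ± 0.30 (SE, unadjusted p = 0.0456), with an adjusted p of 0.661 for both in limma. With slide as a block they were 0.54 and 0.62. Means of all 5 myoepithelium markers (median log2 fold change 0.35), all 6 adipocyte markers (median 0.38) and all 7 markers of lactating epithelium (0.13) were also above those of WT. So were 6 of 8 fibroblast markers (0.16) and 4 of 5 endothelium markers (0.15). Col1a1, Col1a2, Col3a1 and Dcn count both as substrates and as fibroblast markers, and Vwf both as a substrate and as an endothelium marker. Of the markers in these 5 lists Myh11 alone had an unadjusted p under 0.05 (0.48, unadjusted p = 0.0151 in limma). Means of 5 of 6 macrophage markers (median -0.11) and all 8 lymphocyte markers (median -1.26) were below. Of these Lta alone had an unadjusted p under 0.05 (-1.81, unadjusted p = 0.0376, adjusted p = 0.661 in limma). Summed lymphocyte markers read 10680 and 67985 in WT 1 and 2, 2183 and 1677 in WT 3 and 4, and 1333 to 9650 in hNAG-1 glands. The part of these cell types in the collagen IV values was not tested. Comp, the cartilage protein cut by Adamts7 and Adamts12, was lower, with a log2 fold change of -0.91 ± 0.37 (SE, unadjusted p = 0.0362, adjusted p = 0.661 in limma), and above background in 3 of 5 hNAG-1 glands. With slide as a block the value for Comp was -0.47, and with normexp it was -0.33.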

How the data were processed

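Total RNA of mammary gland number 4 was labelled with Cy3 and hybridized by the authors to Agilent whole mouse genome arrays, 1 per gland. The deposited values are spot intensities from Agilent Feature Extraction, version 9.5 (9.5.3.1 in the file headers), with the software's background correction and its call of well above background. The deposited series table holds the same linear intensities (largest difference 0.0) and was not used further.

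After removal of control spots, the 75th percentile of the remaining 43379 spots was made equal on all arrays, and repeated spots were averaged per probe. Log2 values of 41174 probes were compared between 4 WT and 5 hNAG-1 glands with limma 3.58.1 (R 4.3.3), two-sided, with Benjamini-Hochberg adjustment over all probes, and intervals are limma's at 95%. Single genes were also compared by the exact two-sided permutation test over the 126 ways to choose 4 of 9 glands. The number of arrays limits the precision.

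A gene was represented by its probe with the highest mean. Described with all values were genes with an unadjusted p under 0.05 or no overlap, and the gene with the largest change per class among those above background on every array of 1 genotype. Mmp8, Mmp9, Mmp3, Mmp17, Timp1, Adamts1, Adamts5 and others given with values were chosen after their values were seen. The members and all lists were chosen with earlier results of these data known. Probe names are those of the array design, and 53 of the 73 accessions matched RefSeq (GRCm38.p6), 0 under another symbol. WT and hNAG-1 numbers do not pair the samples. Alternatives were other background corrections, scalings, slide blocks and left-out glands. One of them, leaving out WT 2 and hNAG-1 4, was chosen after seeing the data.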

Additional observations from a re-analysis of the deposited data

Results flagged for a closer look

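In 5 cases 1 gland lay far from the others of its genotype, by Dixon's gap test over 76 groups of values. Chance alone flags about 1 in 20 groups when values are normally distributed, and 5 of 76 is near that share. The test used intensities on the linear scale, and all 5 values were the highest of their group. Mmp8 in hNAG-1 4 was 783.79, with the next hNAG-1 gland at 26.8. Mmp10 in hNAG-1 5 was 52.162, with the next at 23.9, and Mmp21 in hNAG-1 5 was 64.997, with the next at 22.5. Mmp1a in hNAG-1 2 was 42.995, with the next at 14.3, though its second probe read 6.10 in that gland. Adamts1 in WT 2 was 1151.6, with the next WT gland at 616. All 5 spots were well above background in that gland.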

How the results depend on the processing

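No member had an adjusted p under 0.05 in limma under any alternative, except Mmp10 (1 member) without hNAG-1 5, when 215 probes of the array passed. The number of members at an unadjusted p under 0.05, 3 as reported, was 0 with normexp (2.52% of all probes), 7 with quantile normalization (5 higher, 2 lower; 6.36% of all probes), 8 with median scaling (6 higher, 2 lower; 8.76%), 7 with slide as a fixed block (6 higher, 1 lower; 7.61%) and 10 within slide 3 (10 higher, 0 lower; 9.04%). Leaving out 1 gland gave 1 to 11 members (1 without WT 3, where 3.95% of all probes were called, and 11 without hNAG-1 5, 10 of them lower, where 14.4% were) and 0 to 1 after adjustment. Members without overlap, 1 as reported, numbered 0 with normexp (0.855% of all probes), 4 or 5.48% with quantile normalization (2.11%), 3 or 4.11% with median scaling (2.30%), 2 or 2.74% with no scaling (0.554%), 6 or 8.22% without WT 2 and hNAG-1 4 together (4.05%, a choice made after seeing the data) and 35 or 47.9% within slide 3 (57.6%), where 1 gland stands for hNAG-1, and 1 to 3 with 1 gland left out, beside 1.62% to 8.13% of all probes (3 without WT 2, hNAG-1 3 or hNAG-1 5, and 2 without WT 3, WT 4 or hNAG-1 1). Members meeting the methods' criteria, also 1, numbered 0 with normexp (0.838% of all probes), 2 or 2.74% with quantile normalization (1.41%) or median scaling (2.49%), 3 or 4.11% with slide as a fixed block (1.83%), 6 or 8.22% within slide 3 (2.47%), and 0 to 3 with 1 gland left out, beside 0.986% to 5.52% of all probes (0 without WT 1, 3 without WT 4 or hNAG-1 5, 2 without WT 2 or hNAG-1 1). The methods' test gave 3 members at an unadjusted p under 0.05 (4.11%, against 4.82% of all probes) and 0 after adjustment. By that test 1 member met the methods' criteria (1.37%, against 1.22% of all probes). The median of the members relative to all probes, -0.06, stayed between -0.11 and 0.03. The median of all probes moved from -0.02 to 0.20 with median scaling, -0.16 with no scaling and 0.19 with slide as a block.

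With slide as a fixed block, and within slide 3, 17 of the 42 genes took the other sign, as did 40.4% of all probes with the block. Relative to the median of all probes in each fit, 19 genes and 42.1% of all probes did. Among the latter genes, with the same value in both fits, were Adamts20 (0.79), Adamts3 (1.32), Adamts16 (0.84), Adamts5 (-0.91), Timp3 (-0.23) and Mmp11 (-0.22). Mmp10 (0.18 in both) lay at the median of all probes (0.19) and did not turn relative to it. The cause was not tested. Replicate numbers did not pair the samples: deviations of same-numbered glands correlated at 0.28, -0.20, -0.14 and -0.31, and only number 1 correlated best with its own number. A fit with the replicate number as a block, which leaves out hNAG-1 5 in effect, gave 10 members at an unadjusted p under 0.05, all lower, where 13.2% of all probes were called, 6 (8.22%) meeting the methods' criteria, as did 6.25% of all probes, and 0 after adjustment. Signal over background limits the 39 member probes not measured on all arrays.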
